A study of Caenorhabditis elegans with 2 samples.

Results

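EGL-43 bound 1725 regions on the X chromosome of *Caenorhabditis elegans* L3 larvae that were found in both biological replicates, out of 7259 such regions in all. Of the others, 5531 lay on the 5 autosomes and 3 on the mitochondrial genome. EGL-43 is the worm homologue of the mammalian zinc finger transcription factor EVI1 and is known for its functions in the anchor cell of the gonad and in neurons. The members were chosen by position alone: overlapping peaks (1 bp or more) were joined into regions, those regions to which both replicates contributed were termed shared, and the shared regions on X were kept. The binding sites were mapped by ChIP-seq, in which DNA cross-linked to a protein is recovered with an antibody and sequenced, so that bound places appear as peaks of reads. All larvae had the genotype zh136[egl-43::gfp] in a background labelled wild-type, with *gfp* inserted at the 3′ end of the endogenous gene, which labels both isoforms, and were collected after 27 h at 25°C following L1 arrest. Both populations were fixed with formaldehyde and EGS, and chromatin was precipitated with the anti-GFP antibody ab290. This gave 1 condition with 2 replicates.

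Chromatin came from whole larvae, so a region does not tell in which cells EGL-43 was bound. No control library was used here, and binding by EGL-43 and places that any tagged protein would enrich cannot be told apart. The lists give no read totals, so the depth is unknown. The measure of strength is the fold enrichment, the reads at the summit of a peak over the background that the peak caller estimated. All positions are given in ce11 (WBcel235), counted from 1.

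The X chromosome of *C. elegans* differs from the autosomes in what it carries and in how it is packed. Genes used by the germline are rare on X, while many genes of neurons and muscle are found there. In hermaphrodites, a condensin-based dosage compensation complex, brought to X by SDC-2 and its partners, binds along both X chromosomes and lowers their transcription. The complex is recruited at sites that share a GC-rich motif. On autosomes, the genes that many cells use gather in the central part and fast-evolving gene families in the arms, whereas the X chromosome lacks such a sharp division.

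Windows that reach 50 bp to either side of the summit show what the strongest X regions look like in sequence. The following were read from the RefSeq genome on the plus strand and touch no annotated exon. Capitals mark a match, on either strand, to a word that was searched for, and windows without capitals hold none of these words. The first 3 belong to the strongest regions, the next to the gene with the most regions, and the last 4 hold the words of EVI1 and of the dosage compensation motif that are described below.
dhhc-1 upstream, chrX:15100688-15100788: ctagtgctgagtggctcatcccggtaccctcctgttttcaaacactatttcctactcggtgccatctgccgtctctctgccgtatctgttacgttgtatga
bet-2 upstream, chrX:10568937-10569037: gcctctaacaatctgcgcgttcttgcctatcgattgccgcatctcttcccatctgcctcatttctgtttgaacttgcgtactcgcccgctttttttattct
near tmem-184, chrX:14708322-14708422: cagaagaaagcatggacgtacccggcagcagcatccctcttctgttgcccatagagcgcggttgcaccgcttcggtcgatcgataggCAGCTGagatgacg
lin-14 upstream, chrX:11465391-11465491: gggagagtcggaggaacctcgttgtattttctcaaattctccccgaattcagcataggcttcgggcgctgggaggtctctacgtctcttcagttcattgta
near tps-1, chrX:17479991-17480091: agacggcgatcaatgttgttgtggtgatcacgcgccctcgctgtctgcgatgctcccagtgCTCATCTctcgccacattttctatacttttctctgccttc
tbc-18 upstream, chrX:8378362-8378462: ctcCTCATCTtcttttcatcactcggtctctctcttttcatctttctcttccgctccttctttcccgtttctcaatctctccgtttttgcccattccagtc
near dpy-23, chrX:4395592-4395692: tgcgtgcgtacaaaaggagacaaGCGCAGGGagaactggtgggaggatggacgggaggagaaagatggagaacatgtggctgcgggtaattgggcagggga
near gtr-1, chrX:806633-806733: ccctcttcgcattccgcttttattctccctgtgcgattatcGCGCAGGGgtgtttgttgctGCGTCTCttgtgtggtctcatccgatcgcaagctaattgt

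X carried more EGL-43 regions per length than any autosome. There were 97.4 shared regions per Mb of X, against 67.0 per Mb of the autosomes together, a ratio of 1.45 (95% exact interval 1.38 to 1.53, for counting error only). The individual autosomes ranged from 51.6 per Mb on chromosome V to 82.6 per Mb on chromosome III, so that X lay above this range. X holds 17.7% of the nuclear bases and 13.7% of the protein-coding genes, but 23.8% of the nuclear shared regions. Because X is 1 chromosome beside 5, no p-value was attached to the difference.

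Both replicates had this excess on their own, at unequal size. Replicate 1 listed 1976 peaks on X (112 per Mb, 1.44 times the autosomal 77.6 per Mb), and replicate 2 listed 2764 (156 per Mb, 1.58 times the autosomal 98.8 per Mb). On X, 91.0% of the replicate 1 peaks but only 63.8% of the replicate 2 peaks had a partner in the other list. For the autosomes, these shares were 89.1% and 69.2%, and on chromosome V the latter share was 63.9%, close to that of X. Peaks of replicate 2 without a partner were 1.86 times as dense on X as on autosomes (interval 1.72 to 2.00), while those of replicate 1 were 1.18 times as dense (interval 0.993 to 1.39).

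**Figure D1:**
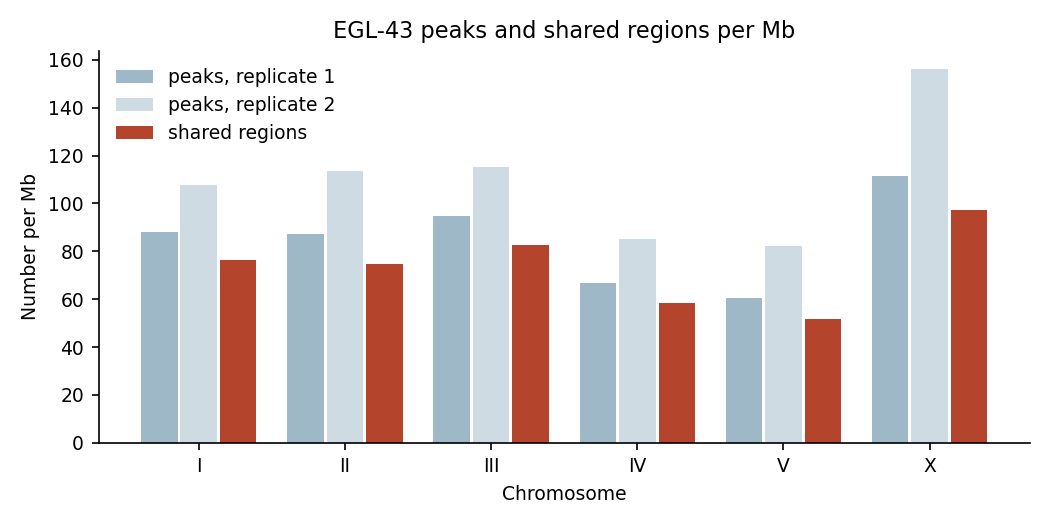
Number per Mb of EGL-43 peaks in replicate 1, in replicate 2 and of shared regions, for each nuclear chromosome. For all 3 measures the highest bar is that of X, at 112, 156 and 97.4 per Mb.

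The greater number was not matched by greater strength, and strong regions made up a smaller share on X than on the autosomes together. The median fold enrichment of the X regions was 3.76 in replicate 1 and 4.30 in replicate 2, and that of the autosomal regions 3.92 and 4.44. Chromosome V was close to X, at 3.75 and 4.39. For the lower of the 2 replicate values, the median was 3.63 on X and 3.59 on V. The 75th percentile of this value was 4.88 on X, 4.95 on II and 5.02 on V, and at least 5.26 on the other autosomes. Across X regions, the log2 difference between the replicates varied with an SD of 0.32, and its central 95% reached from -0.53 to 0.77. In a ranking by the lower replicate value, X held 23 of the strongest 100 nuclear regions and 114 of the strongest 500 (22.8%). In successive sets of 1814 nuclear regions, from the strongest to the weakest, the X share was 21.4%, 24.1%, 23.9% and 25.6%. A fold enrichment of at least 5 in both replicates was reached by 406 X regions (23.5%, interval 21.6 to 25.6%) and by 27.2% of the autosomal regions (interval 26.0 to 28.4%), and in this subset the density ratio was 1.26. The median length was 385 bp on X, with extremes of 166 and 5014 bp, and 357 bp on autosomes.

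The strongest of all nuclear regions was on X, upstream of *dhhc-1*, a gene of the DHHC family of protein palmitoyltransferases. This region (chrX:15100497-15100960) was enriched 19.8-fold in replicate 1 and 19.04-fold in replicate 2, with its summit 319 bp before the start of the gene. The next on X, at rank 5 of all nuclear regions, lay 286 bp upstream of *bet-2*, which codes for a bromodomain protein of the BET family (chrX:10567408-10569676, 18.1 and 16.7). At rank 8 came a region 3392 bp upstream of *alg-1*, an Argonaute protein of the microRNA pathway (chrX:13945450-13946123, 16.3 and 17.4), which was too far to be assigned to the gene by the 500 bp limit.

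Another 6 of the 12 strongest X regions lay at or shortly before protein-coding genes. A region at *pdi-2*, which codes for a protein disulfide isomerase, had its summit 10 bp upstream (14.3 and 14.5). The regions of *spc-1*, the gene of alpha spectrin (803 bp upstream, 14.4 and 14.2), and of *F09C8.2* (941 bp upstream, 17.2 and 15.5) reached into the 500 bp before the gene. The summit near *sms-2*, a sphingomyelin synthase gene, was 818 bp upstream (14.7 and 14.2), and that near *tmem-184* was 1511 bp upstream (15.4 and 16.7). A region in *R04E5.9* was the only member of the 12 with its summit in an exon, 9 bp after the start of the gene (14.01 and 12.7).

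The last 3 of the 12 lay farther away from any protein-coding start. These were 2665 bp upstream of *dct-1* (12.7 and 15.2), 5507 bp upstream of *tps-1*, a trehalose-6-phosphate synthase gene (14.98 and 13.2), and 5973 bp upstream of *mboa-1* (12.9 and 14.2). The region assigned here to the neighbourhood of *mboa-1* was closer to a microRNA gene, with its summit 2355 bp upstream of *mir-84*, a *let-7* family member. The lowest value among the 12 was the 12.7 of the region near *dct-1* in replicate 1.

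Position along X was even compared with the autosomes. In the 17 full windows of 1 Mb, the number of regions ran from 60 to 133 with a median of 98. The first and the second Mb at the left end were lowest, with 61 and 60 regions, and the window from 4 to 5 Mb was highest with 133. When each chromosome was divided into 10 equal parts, X varied between 62.1 and 118 regions per Mb, whereas the autosomes together varied between 36.0 and 103. Since the centre and the ends differed so clearly on autosomes, the central 40% of each chromosome was set beside the outer 60%, a split chosen after these values had been seen. X had 100.9 regions per Mb in the central part and 95.002 in the outer part, a ratio of 1.06 (interval 0.964 to 1.17). Among the X regions enriched at least 5-fold in both replicates the outer part was the denser, with a ratio of 0.870 (interval 0.706 to 1.07), and both intervals include 1. On autosomes the values were 94.2 and 48.9, a ratio of 1.93, and the single autosomes lay between 1.72 and 2.33.

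Counted per Mb, the excess on X was found in the outer part. In the central 40%, X was 1.07 times as dense as the autosomes (interval 0.986 to 1.16) and within the range of the single autosomes, 78.5 to 110 per Mb. In the outer 60%, the ratio was 1.94 (interval 1.80 to 2.09), and the highest autosome had 64.2 regions per Mb. Protein-coding starts were sparser on X in both parts, with 168 per Mb in the centre and 145 in the outer part, against 237 and 190 on autosomes. Per 1000 protein-coding genes, X was above the autosomes in both parts, with 601 central and 655 outer regions against 398 and 257. Either replicate alone gave a central to outer ratio of 1.07 and 1.16 on X and of 1.96 and 1.93 on autosomes.

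**Figure D2:**
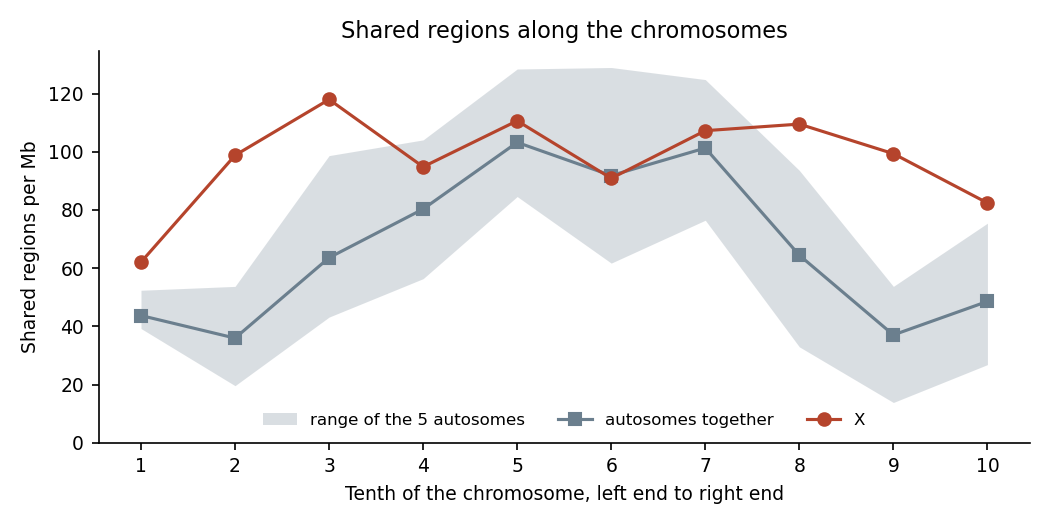
Shared EGL-43 regions per Mb in each of 10 equal parts of the chromosome, from the left to the right end, for X (circles) and the autosomes together (squares), with the range of the 5 autosomes shaded. X stays between 62.1 and 118 per Mb, while the autosomes peak in the middle at 103 and drop to 36.0 in part 2.

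The summits of X regions were placed in gene classes to see where within gene neighbourhoods EGL-43 was bound. A summit within 500 bp upstream of a protein-coding start was counted first, then exons, introns and the stretch from 500 to 2000 bp upstream. On X, 358 summits (20.8%, 95% Clopper-Pearson interval 18.9 to 22.7%) were in the 500 bp class, compared with 24.8% on autosomes. Introns held 461 (26.7%) and exons 132 (7.65%), against 27.4% and 7.27%. Another 334 (19.4%) lay 500 to 2000 bp upstream and 440 (25.5%) elsewhere, against 17.7% and 22.9%. Of these 440, 367 had no annotated gene of any type at the summit, and most of the others were in genes annotated as ncRNA.

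X and the autosomes differ in how much of their length each class takes, so the summits were also counted per length of class. The 500 bp class makes up 7.51% of X and held 269 summits per Mb, 1.59 times the autosomal 169. The ratio was 1.82 in exons (30.6 and 16.8 per Mb) and 1.54 in introns (85.8 and 55.5 per Mb). It was smaller, 1.28 and 1.16, from 500 to 2000 bp upstream and in the remaining class. In both of these, chromosomes I and III were denser than X, while II, IV and V were less dense. From 500 to 2000 bp upstream, I and III had 163 and 173 summits per Mb, against 139 on X. In the remaining class they had 117 and 107, against 102 on X. X regions near starts were also stronger than other X regions. Their median of the lower fold enrichment was 4.44, compared with 3.75 from 500 to 2000 bp upstream, 3.40 in introns, 3.20 in exons and 3.57 elsewhere. On autosomes the medians spanned less, from 3.29 in exons to 3.97 from 500 to 2000 bp upstream, and the 500 bp class had 3.87.

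**Figure D3:**
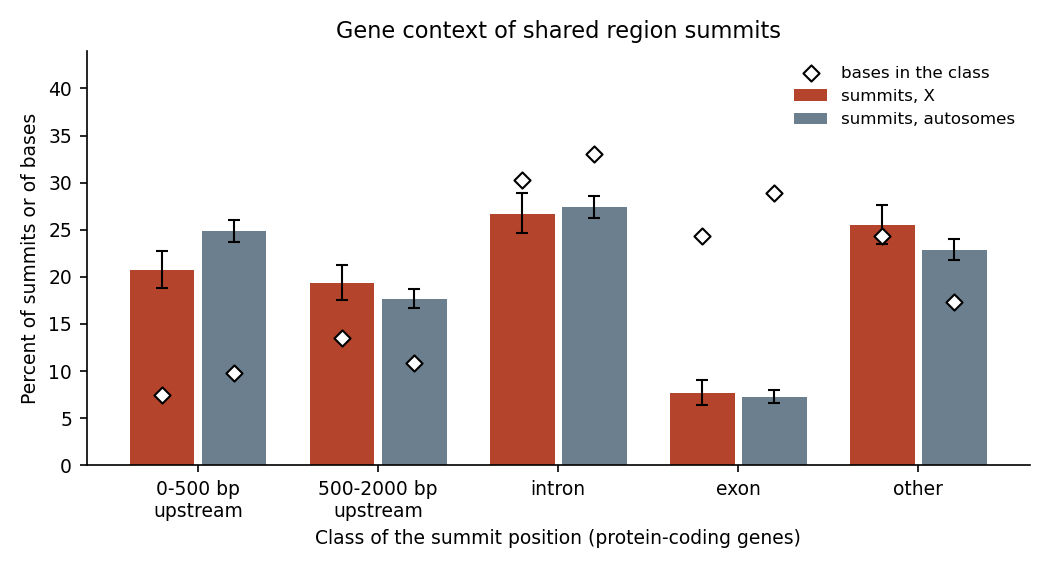
Percent of shared region summits in each gene class for X and for the autosomes, with 95% Clopper-Pearson intervals as error bars and the percent of bases in that class as diamonds. Summits exceed the bases upstream of starts and fall short of them in exons, on X (20.8% against 7.51% and 7.65% against 24.3%) as on autosomes.

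Distances to genes were longer on X, where genes are sparser. The median distance from a summit to the nearest protein-coding start was 1702 bp on X and 1453 bp on autosomes, beside median gaps of 4948 and 3248 bp between neighbouring starts. Beyond 5000 bp of any start were 291 X regions (16.9%, against 15.9%), the farthest at 46784 bp. A protein-coding gene was assigned to 1045 X regions (60.6%, against 64.0%), counting regions that touched the gene or the 500 bp upstream. No gene of any type was assigned to 450 (26.1%).

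Among the 2731 protein-coding genes of X, 719 had a shared region (26.3%, interval 24.7 to 28.0%). On autosomes the share was 17.0%, and single autosomes lay between 11.6% on V and 23.3% on III. Since a long gene meets more regions and X genes are longer, with a median of 2548 bp against 1964 bp, the shares were compared by gene length. Of X genes over 10000 bp, 62.9% had a region, against 46.3% of autosomal genes of that length. Between 5000 and 10000 bp the shares were 43.5% and 30.7%, and between 2000 and 5000 bp they were 28.6% and 17.0%. For genes of up to 1000 bp the order was the opposite, 9.48% on X and 12.8% on autosomes, with intervals of 7.03 to 12.4% and 11.6 to 13.97% that overlap.

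For tRNA, microRNA and snoRNA genes of X, the share with a region was near the 26.3% of its protein-coding genes of all lengths. It was lower for piRNA genes. Some of these counts are small, and the differences from the autosomes were not tested. tRNA genes had a region in 82 of 276 cases (29.7%, against 23.2% on autosomes) and microRNA genes in 17 of 74 (23.0%, against 24.1%). Genes of snoRNAs, which guide the modification of ribosomal RNA, had one in 8 of 33 (24.2%, against 39.6%). Of the annotated piRNA genes, 11 of 162 on X were touched (6.79%, against 2.57%). Many of these genes are shorter than a region, so a region can touch several of them and their neighbours at once.

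The gene with the most regions on X was *lin-14*, which codes for a transcription factor of the heterochronic pathway that sets the timing of larval cell fates. It extends over 20312 bp of the plus strand (chrX:11465560-11485871) and had 15 shared regions. The summit of the strongest was 119 bp upstream of the gene, where replicate 1 showed 8.53-fold and replicate 2 showed 8.49-fold enrichment. The window around it is printed above. In intron 1, a region 1892 bp after the start reached 7.41 and 9.11. In intron 3, a region of 2660 bp with its summit at 7916 bp reached 8.07 and 9.03. The other 12 were weaker in both replicates, between 2.61 and 6.001, and all had intronic summits. Under the other rules for sharing, or in either replicate alone, between 13 and 18 regions were counted at *lin-14*.

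**Figure D4:**
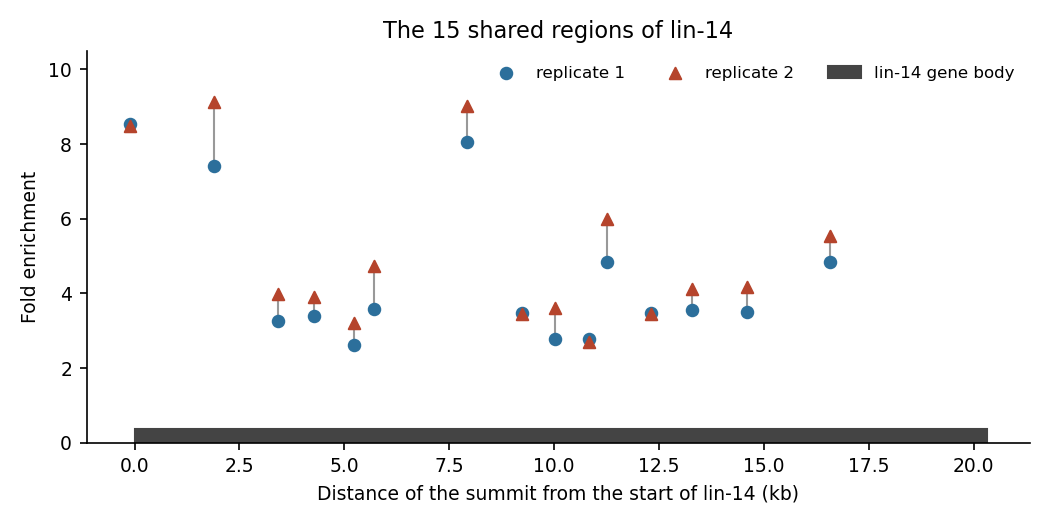
Fold enrichment of the 15 shared regions of *lin-14* in replicate 1 (circles) and replicate 2 (triangles), joined by a line, against the distance of the summit from the start of the gene in kb, with the gene body drawn at the bottom. 3 regions exceed 7 in both replicates, and the other 12 lie between 2.61 and 6.001.

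Further X genes with many regions were long and mostly bound in introns. *W03G11.4* (16663 bp) had 9, all in introns, the strongest at 4.36 and 6.84. *scd-1* and *cab-1* had 8 each, and their strongest regions reached 9.35 and 11.0, and 9.23 and 11.1. *unk-1*, the Unkempt homologue, also had 8, of which 3 had their summits in exons, and its strongest value was 8.96 and 9.99. The 8 regions of *mbl-1*, which codes for the splicing regulator Muscleblind, were all intronic and weak, up to 3.92 and 4.14 in the strongest. *ldb-1*, the gene of the LIM domain binding cofactor, had 7 up to 8.51 and 9.21, and *ajm-1*, which codes for an apical junction protein of epithelia, had 7 up to 5.31 and 6.24. In all, 198 X genes had at least 2 regions and 26 had at least 5.

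Regions followed each other in runs on X, as they did on autosomes. Of the X regions, 918 (53.2%, interval 50.8 to 55.6%) had a neighbouring summit within 2 kb, against 50.4% on autosomes, where II (54.8%) and III (53.5%) were higher than X. The median gap between neighbouring summits was 3872 bp on X and 4827 bp on autosomes, and the mean spacing was 10272 and 14926 bp. Runs of at least 5 regions joined by such gaps numbered 41 on X and held 276 regions (16.0%, against 14.2%, and 21.8% on II). The largest stretch of X without a shared region measured 178698 bp.

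The longest run of any nuclear chromosome was that of *lin-14*, with 17 regions in 19806 bp (chrX:11463040-11482845), 2 of which preceded the regions assigned to the gene. The longest on autosomes held 14 and lay on II around *egl-43* itself. The second on X surrounded *ldb-1* with 11 regions, from 2.70 to 9.21. A run of 10 regions covered *abts-4* and *mdl-1*, the latter a homologue of the transcription factor MAD, and its strongest region reached 8.40 and 11.3. Another 10 lay around *syd-9*, *spp-22* and *ZK867.2* with values of at most 5.82. The fifth, with 9 regions between 2.45 and 8.64, touched no protein-coding gene or its upstream 500 bp, and its nearest starts were those of *apl-1*, the worm relative of the amyloid precursor protein, and *tbc-7*.

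Gene lists for tissues and pathways were then read on X against the 26.3% of all its protein-coding genes. The lists are short. Among those made up of protein-coding genes on X, the 95% interval lay above 26.3% for synapse (38.6 to 90.9%) and axon guidance genes (31.5 to 76.9%). It lay below 26.3% for the intestinal genes and included this share for the others. The synapse and axon guidance genes of X are long, with medians of 8532 and 5898.5 bp. Of all X genes of 5000 to 10000 bp, 43.5% had a region, a share that both of their intervals include. In the heterochronic list, 4 of 7 protein-coding genes of X and both microRNA genes had a region, and on autosomes 7 of 12 protein-coding and 3 of 3 microRNA genes. The nuclear receptor gene *daf-12*, whose product reads a steroid signal for developmental progress, had 3 regions, the strongest in intron 1 at 11.4 and 12.5 (chrX:10636965-10638362). *kin-20*, which codes for a casein kinase related to fly Doubletime, had 3 (up to 9.65 and 8.21). The microRNA gene *let-7*, which promotes late larval fates, had 2, and the stronger lay in its annotated primary transcript (7.49 and 5.27). *alg-1* had 1 in intron 1 (5.40 and 4.67), besides the far stronger region 3392 bp upstream, and *mir-84* had 1 at 164 bp upstream (4.68 and 2.98). *hbl-1*, *daf-9* and *nhr-25* had none by this rule. The nearest summit to the start of *hbl-1* was 10062 bp upstream and belonged to a strong region, at 14.3 and 10.7.

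Synapse genes of X were often touched, 9 of 13, with 23 of 43 on autosomes. *syd-2*, which codes for the presynaptic scaffold protein liprin alpha, had its summit 447 bp upstream at 12.4 and 12.8, and its lower value was the highest among the tissue and pathway lists. The calcium channel gene *unc-2*, 52607 bp long, had 6 regions up to 6.53 and 8.78. *unc-18*, needed for vesicle fusion, had 1 (6.33 and 7.12), and the gap junction gene *unc-9* had 5 up to 5.36 and 6.33. No region was assigned to *tbh-1*, *aex-3*, *egl-36* or *nlg-1*, although a region of 9.41 and 9.45 had its summit 1019 bp upstream of *aex-3*. The listed synapse genes of X have a median length of 8532 bp, within the class of 5000 to 10000 bp in which 43.5% of X genes had a region.

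Among axon guidance genes of X, 11 of 20 had a region (22 of 45 on autosomes). *lon-2*, a glypican gene, led with 7.40 and 9.62 in intron 9. *unc-115*, an actin-binding protein gene (6.89 and 8.65), *vang-1*, a planar polarity gene (4.68 and 5.86), and *mig-2*, a Rac-like GTPase gene (4.27 and 4.89), had summits 98, 291 and 396 bp upstream. Of touch receptor neuron genes, 3 of 6 had a region: *mec-7*, a beta tubulin gene, 116 bp upstream (5.31 and 5.91), the channel subunit gene *mec-10* (3.60 and 3.57) and *mec-2* (3.48 and 5.15). *mec-4*, *mec-5* and *mec-18* had none.

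The basement membrane and matrix list had 8 of 16 X genes with a region, and 8 of 26 on autosomes. *him-4*, which codes for hemicentin, an extracellular protein of anchor cell invasion, spans 36200 bp and had 4 regions, the strongest at 6.36 and 7.51 in intron 31. This region also touched *F15G9.5*. After *lon-2* and *him-4* came the glypican gene *gpn-1* (4.18 and 8.27) and the dystroglycan gene *dgn-1* (5 regions up to 4.01 and 3.88). In *gpn-1*, the replicates differed by more than in 95% of the X regions.

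Of the 5 X genes in the somatic gonad, uterus and anchor cell list, 3 had a region (13 of 38 on autosomes). Besides *him-4*, these were the POU homeobox gene *ceh-18*, in intron 3 (3.14 and 3.04), and the SoxD gene *egl-13*, in intron 1 (2.93 and 5.32, again a difference larger than in 95% of the X regions). *hnd-1* and *let-2*, a type IV collagen gene, had none in either replicate alone. The vulval induction list had 5 of 12 (19 of 36 on autosomes). It was led by *sli-1*, the Cbl homologue (6.18 and 7.51), *sem-5*, the Grb2 homologue (4.27 and 5.40), *vab-3*, the Pax6 gene (3.92 and 4.81), and *lin-18*, which codes for a Ryk receptor (3.83 and 3.97).

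In the list of sex determination and dosage compensation, 4 of 6 X genes had a region and 9 of 20 autosomal genes. *sdc-1* and *sdc-2*, whose products bring the dosage compensation complex to X, had summits 322 and 431 bp upstream, at 7.60 and 7.52, and at 6.04 and 4.73. *sex-1* and *ceh-39*, which code for factors that signal the number of X chromosomes in the embryo, had a region in intron 2 (5.84 and 3.54) and 177 bp upstream (3.89 and 5.41). *xol-1*, the switch gene that reads this signal, and the RNA-binding protein gene *fox-1* had no shared region. Within *fox-1*, 1 peak of replicate 1 and 2 of replicate 2 did not overlap.

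The intestinal, epidermal, neuron identity and muscle lists had few genes with a region on X, but only the interval of the first lay below 26.3%. No intestinal gene out of 13 and no epidermal gene out of 6 had a region (2 of 18 and 2 of 36 on autosomes). These zeros allow shares of up to 24.7% and 45.9% by the exact interval. Of the neuron identity factors, 1 of 16 on X had a region, *vab-3* (interval 0.158 to 30.2%), and 8 of 34 on autosomes. The muscle list had 2 of 13 (interval 1.92 to 45.4%) and 13 of 35 on autosomes, where its genes are longer, with a median of 6594 bp against 2942 bp on X. The X genes were the actin gene *act-4* at 9.68 and 8.27, 92 bp upstream, and *dim-1* at 2.91 and 3.57. None of the 52 listed germline genes is on X.

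Families were read in the same way. Nuclear hormone receptor genes, which code for ligand-gated transcription factors, had a region in 12 of 23 X members (52.2%, interval 30.6 to 73.2%) and in 44 of 246 autosomal members (17.9%). The X members are longer, with a median of 4483 bp against 2251 bp. Both medians fall in the class of 2000 to 5000 bp, in which 28.6% of X genes and 17.0% of autosomal genes had a region. The interval of the X members lay above this 28.6% and above the 26.3% of all X genes. *nhr-48* was the strongest, with its summit 618 bp upstream at 11.0 and 14.4, followed by *nhr-3* (7.52 and 10.6), *nhr-32* (6.76 and 6.24) and *nhr-173* (5.76 and 5.77). Genes with *unc* names had a region in 8 of 16 cases on X and in 41 of 78 on autosomes, led by *unc-115* and *unc-84*, which codes for a SUN protein of the nuclear envelope (7.13 and 6.54). Of the 4 forkhead genes on X, *fkh-9* alone had regions, 6 in all and up to 6.07 and 6.75.

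**Figure D5:**
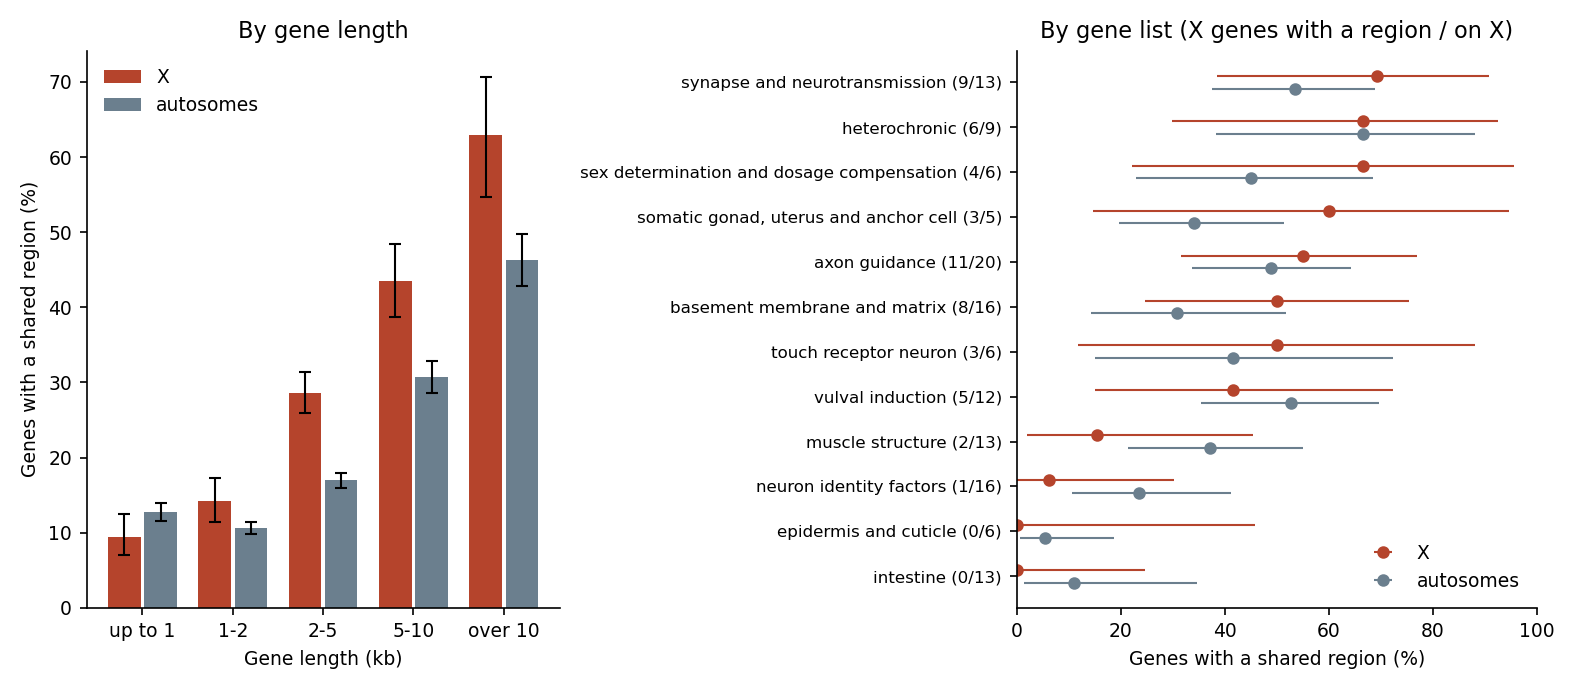
Percent of protein-coding genes with a shared region on X and on autosomes, by gene length (left, bars) and percent of listed genes by list (right, points), with 95% Clopper-Pearson intervals. X lies above the autosomes in each length class over 1000 bp, and the lists on X range from 9 of 13 synapse genes to 0 of 13 intestinal genes.

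Most of the other larger families, many of them neuronal, had a lower share than all X genes. Among these other families, the interval excluded 26.3% only for chemoreceptor and collagen genes (0 to 12.3% and 0.0937 to 18.97%). Their shares were also low on autosomes, with 38 of 1143 (3.32%) and 8 of 129 (6.20%). On X these genes have median lengths of 1843.5 and 1069 bp. Of all X genes of 1000 to 2000 bp, 14.2% had a region, which is within the collagen interval and above the chemoreceptor interval. Homeobox genes named *ceh* had a region in 3 of 18 cases, neuropeptide-like genes in 4 of 19, ligand-gated channel genes and neuropeptide receptor genes in 2 of 18 each, and FMRFamide-like genes in 1 of 13. None of the 10 TWK potassium channel genes, 28 chemoreceptor genes, 6 bHLH genes or 7 cytochrome P450 genes on X had a region, and of 27 collagen genes only *col-177* did, through a region that also touched *F59F3.6* (2.87 and 3.97). Many of these genes are short. The FMRFamide-like genes of X have a median of 969 bp and the neuropeptide-like genes one of 820 bp, lengths at which 9.48% of X genes had a region, so that the 21.1% of the neuropeptide-like genes (interval 6.05 to 45.6%) was above the share for this length and its interval included both shares.

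Short words were counted in these windows around the X summits and in windows of the same width centred 500 bp to the right. AGATGAG, known as the site of the C-terminal zinc fingers of mammalian EVI1 and shown in capitals in the windows near *tps-1* and *tbc-18*, was found in 79 of 1724 X windows (4.58%, interval 3.64 to 5.68%) and in 1.28% of the flanks. Autosomal windows had it in 4.16% and their flanks in 1.16%. ACAAGATA, a site of the N-terminal fingers, was rare, with 6 X windows (0.348%) and 12 flanks. TGACTCA, the binding site of AP-1 factors such as FOS-1, was present in 4.06% of X windows and 1.91% of flanks, and in 3.24% and 1.07% on autosomes. CAGGTG was in 5.10% of X windows and 2.55% of flanks, CAGCTG in 2.78% and 2.03%, and CACGTG in 1.80% and 1.04%. TAATTA was in 4.81% of X windows but in 5.97% of flanks. The flanks held less GC than the windows, as given below, so windows and flanks are not matched in base composition.

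The dosage compensation motif was represented by its letters GCGCAGGG, searched on both strands. They occurred in 14 X windows (0.812%, interval 0.445 to 1.36%) and in 1 X flank, and in 6 autosomal windows (0.109%, interval 0.0399 to 0.236%) and no autosomal flank, out of 5526 windows. Over whole chromosomes the word was found 4.57 times per Mb of X and 2.82 times per Mb of the autosomes. In the 14 X regions the lower fold enrichment ran from 3.22 to 12.7 with a median of 4.81, and 7 were at or above 5. The highest was the exonic region of *R04E5.9* named among the 12 strongest, followed by those near *dpy-23* (10.4 and 11.2) and *gtr-1* (11.0 and 9.40) printed above. The lowest was a region 4863 bp upstream of *xol-1* (3.84 and 3.22). A match is a run of letters and was not tested for binding of either protein.

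Of the other words, those made of G and A repeats or containing GAGACGC were less common at X summits than at autosomal summits. The GA repeat, with GA 5 times in a row, was found in 28 X windows (1.62%) and in 4.51% of the autosomal windows, although X and the autosomes have nearly equal numbers per Mb (99.3 and 99.8). GAGACGC, which was added after its counts had been seen, was in 6.15% of X windows and 13.0% of autosomal windows, and in 0.696% and 0.760% of the flanks. Over whole chromosomes this word was also sparser on X, at 57.4 per Mb against 87.8 per Mb of the autosomes. Within 500 bp upstream of protein-coding starts the shares were 9.50% and 16.6%, and in introns 4.34% and 11.4%, so the difference was present in both classes. CACACAC, also added afterwards, was in 7.83% and 7.04%. TGATAA, a word bound by factors such as ELT-2, was in 2.73% of X windows and in 9.28% of X flanks, and likewise in 3.8002% of autosomal windows and 9.39% of their flanks.

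Base composition at the summits was alike on X and on autosomes. The median GC content of the windows was 45.5% in each, above the 32.7% and 34.7% of the flanks and the 35.2% and 35.5% of the whole chromosomes. Repeats marked in lower case in the reference covered a mean of 13.0% of the X windows and 18.1% of the autosomal windows, compared with 30.6% of X and 36.8% of the autosomes as a whole.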

How the data were processed

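ChIP-seq of EGL-43::GFP was analysed in 2 biological replicates of 1 condition, grouped by the sample labels. According to the study's methods, BWA was used by the authors for alignment to ce11, and MACS2 was run per replicate with the false discovery rate set to 0.05. The largest q-value is 0.00395 in replicate 1 and 0.00688 in replicate 2. The deposited fold enrichment is a ratio of the summit to the background estimated by the authors' peak caller. The deposited −log10 p-values and −log10 q-values come from the same run, and the deposited score is 10 times −log10 q, rounded down. The later curvature, BEADS and blacklist steps of the methods had not been applied to these lists.

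Peaks overlapping by at least 1 bp were merged, and a region took its highest fold enrichment in each replicate. Its summit was that of the stronger peak. Genes came from Ensembl release 115, and 260 of 261 microRNA genes took their names from RefSeq by equal coordinates. Assignment required that a region touched the gene or lay partly in the 500 bp before its start. Exons and introns were numbered in the transcript with the longest span. The promoter and enhancer map of the methods was not used here. For each gene list, 510 of 513 symbols in total were matched.

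Intervals are exact at 95% (Clopper-Pearson for shares, and conditional on the total for density ratios) and cover counting error only. No p-value was computed, since regions are not replicates. Named were the 12 strongest X regions, the 8 X genes with the most regions, up to 4 X genes per list and the 5 longest runs. Families with few members on X were summarised. The members, the 13 gene lists, the 29 families and the 10 words were chosen with earlier results of these data known. Scripts ran in Python 3.11.15 with scipy 1.17.1, numpy 2.4.6 and matplotlib 3.10.9. Merging, classification and assignment were tested on simulated data. As alternatives, a stricter q-value (1e-05), a reciprocal overlap of 50%, summits within 100 bp, single replicates, other upstream limits and starts, other gaps, and other windows for the words were tried.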

Additional observations from a re-analysis of the deposited data

How the results depend on the processing

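Of 89 alternative values, 58 stayed within the interval or limit of the reported value, and 31 moved. The density ratio of X to autosomes stayed above 1 in each of its alternatives, and the central to outer ratio on X, whose interval includes 1, fell below 1 in 1 of them. The density ratio of X to autosomes was 1.35 without chromosome V, 1.97 per 1000 protein-coding genes and, at a fold enrichment of at least 5 in both replicates (added after seeing the data), 1.26. Without either replicate it ranged from 1.44 to 1.58, and the number of X regions from 1976 to 2764. The mean instead of the lower replicate value gave a median fold enrichment of 4.06. The share of X summits upstream of starts was 9.57% for 200 bp, 41.9% for 2000 bp, 33.0% for genes of any type and 25.4% for any transcript start, with autosomal shares of 13.4%, 46.7%, 34.9% and 30.6%, and without either replicate it was 17.6 to 19.4%. The share of X regions with a neighbour was 24.5% within 1 kb and 75.3% within 5 kb. It was 49.4% with q-values up to 1e-05, 48.5% with reciprocal overlap, 48.8% with summits within 100 bp, and 59.0 to 65.8% without either replicate, each above the autosomal share under the same setting (23.9 to 72.0%). Regions were also denser on X, and neighbours were not compared at equal density, so these shares do not show closer clustering on X. The ratio of central to outer density on X was 1.23 for the central 60% and 0.870 at a fold enrichment of at least 5, against 2.03 and 1.73 on autosomes (all added after seeing the data), and 1.07 to 1.16 without either replicate. Windows of 201 bp raised the shares of most words by construction. The causes of the other shifts were not tested. No paired analysis was possible because there was only 1 group. The depth is unknown, and no control library was used here, so the level of a region absent from a list could not be given.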

Other observations

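The microRNA genes of X included several small clusters under a shared region. A region of 11.6 in replicate 1 and 10.1 in replicate 2 (chrX:13143179-13145805) was the strongest assigned to microRNA genes on X and touched *mir-54*, *mir-55* and *mir-56*, which lie side by side on the minus strand, together with *F09A5.3*. *mir-240* and *mir-786* shared a region with its summit 128 bp upstream of the former (4.44 and 4.64), and *mir-73* and *mir-74* shared another (5.76 and 3.18). Because neighbours share regions, the 17 microRNA genes touched on X rest on fewer independent regions.

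Single genes of some other small families were also touched on X. Of the histone genes, 2 of 4 on X had a region, against 60 of 68 on autosomes. For cytosolic ribosomal protein genes the counts were 1 of 2 and 60 of 76, and for acetylcholine receptor genes 1 of 6 and 1 of 15. *his-24*, a linker histone gene, had a summit 42 bp upstream (7.88 and 6.90), and *rpl-11.2*, of a ribosomal protein, had its summit 365 bp upstream (5.71 and 6.77). The acetylcholine receptor gene *acr-12* had a region 5 bp from its start (5.57 and 5.82).

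The 14 X regions whose windows hold GCGCAGGG differed between replicates in the direction opposite to most X regions. Replicate 1 had the higher fold enrichment in 11 of the 14, with a median log2 difference of -0.29 (replicate 2 minus replicate 1), while replicate 1 was higher in 531 of all 1725 X regions (30.8%), whose median was 0.15. This comparison was made after the values had been seen and was not tested.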
